A study of Homo sapiens with 48 samples.

Results

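The comparison described here sets T-REX against light alone at 6 h in HEK293T cells, an established human embryonic kidney line. All cultures were transfected with a plasmid for wild-type NCBP1 fused to Halo. NCBP1, with its small partner NCBP2, forms the cap-binding complex of the nucleus, which sits on the 5′ cap of newly made transcripts and takes part in their splicing, export and first round of translation. In T-REX, a photocaged probe docks on Halo and light then frees 4-hydroxynonenal (HNE), a lipid-derived electrophile, next to the fused protein. The members are the libraries labelled T and UV at 6 h, 4 and 4, which make 8 of the 48 libraries of the series, and all 14685 genes of the count table were compared.

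The libraries labelled UV are called light alone in the study. The study's Methods, however, list probe and light for that arm, which are the ingredients of T-REX, so what the light-alone cells received besides light is stated here only as the label gives it. The other arms at 6 h were probe without light (probe alone) and DMSO without light, with 4 libraries each, and the series also holds these 4 arms at 3 h and 12 h. Transfected cultures hold cells with and without the plasmid, and a change in the number of responding cells cannot be told apart from a change per cell. RNA came from independent biological replicates according to the series' design text. Libraries were stranded and depleted of ribosomal RNA, and a count is the number of read pairs or reads assigned to a gene.

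Total counts in the 8 libraries lay between 28463325 and 35492475, and the lowest count of any gene at 6 h was 5. A light-alone library, replicate 3, stood apart from the other 15 libraries of 6 h on the first principal component, which held 23.7% of the variance (34.5, against -26.3 to 8.99 for the others). On the second component light-alone replicate 4, at -4.40, was the light-alone library nearest to the T-REX libraries, which lay between -15.8 and -6.58, while the other light-alone libraries lay between 2.71 and 16.5. Of 11 markers of HEK293T cells 10 could be followed and none was called, and of 12 markers of blood, endothelium, fibroblasts, liver and muscle only COL1A1 could be, at a log2 fold change of -0.10. Values below are CPM, the share of a scaled library total (the total times its TMM factor) that a gene took, on the usual CPM scale.

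The targeted gene was checked first. NCBP1 (ENSG00000136937) stood at 73272, 65121, 70599 and 79216 CPM in the T-REX libraries and at 43353, 31200, 38499 and 52193 CPM in the light-alone libraries. Every T-REX library was above every light-alone library, and the log2 fold change was 0.80 (standard error 0.14, adjusted p = 0.0214 from the quasi-likelihood test of edgeR, adjusted after Benjamini and Hochberg). The call was lost when T-REX replicate 1, 3 or 4, or light-alone replicate 1 or 3, was left out. Plasmid and endogenous NCBP1 are not separated in these counts. Probe alone stood at 82064 ± 11926 CPM and DMSO at 53212 ± 5771 CPM (SD, n = 4), so that light alone had the lowest mean of the 4 arms and was itself called below probe alone (-0.99, adjusted p = 0.014). NCBP1 took 7.21% ± 0.641 of a library's counts under T-REX and 4.18% ± 0.921 with light alone (SD, n = 4, p = 0.0286 by an exact two-sided permutation test, the smallest p that 4 against 4 allows). The 13 mitochondrial transcripts took 8.10% ± 0.418 and 8.69% ± 0.521 (SD, n = 4, p = 0.171 by the same exact test). The 10 genes with the highest counts, NCBP1 among them, took 18.4% ± 0.52 and 16.1% ± 0.666 (SD, n = 4, exact p = 0.0286).

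The 2 arms thus differed in the total NCBP1 count as well as in label. With the log2 CPM of NCBP1 as a covariate, added after the data were seen, edgeR called 0 genes, with 765 whose unadjusted p was 0.05 or less. Of the 31 other genes called below, 30 kept their direction in that fit, ENSG00000245025 being the exception, and the smallest adjusted p was 0.355, for TXNIP. For some genes the log2 fold change was about as large as without the covariate, with a larger standard error. TXNIP was at -0.91 (standard error 0.17, against 0.09 without the covariate), TIPARP at -0.59 (0.16 against 0.08), CREB3L2 at 0.39 (0.10 against 0.05) and SEC24D at 0.45 (0.12 against 0.06). For others the log2 fold change itself was much smaller. SLC7A11 was at 0.27 in place of 0.69, MAP2K6 at -0.25 in place of -0.58, CA8 at -0.16 in place of -0.45, XBP1 at 0.12 in place of 0.31 and ASNSP1 at 0.15 in place of 0.89. Because NCBP1 did not overlap between the 2 arms, its level and the arm cannot be told apart in these 8 libraries. Probe alone, whose NCBP1 was as high as that of T-REX (log2 fold change of T-REX against probe alone -0.19, adjusted p = 0.88), is therefore set beside the results below. The share of all genes called was 0.109% for T-REX against probe alone, 0.415% for T-REX against DMSO, 0.0613% for light alone against probe alone and 0.00681% for light alone against DMSO.

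Cells answer an electrophile such as HNE with several known programmes. In the integrated stress response, phosphorylation of the initiation factor eIF2 raises translation of ATF4, which switches on amino acid transporters, amino acid synthesis and tRNA synthetases. The study's own western blots of eIF2α phosphorylation, made sooner after T-REX than 6 h, showed no significant change. Lists below that carry the name of this response are groups of genes and do not measure that step. In the unfolded protein response, XBP1, ATF6 and related factors raise chaperones and the secretory machinery, and NRF2 drives antioxidant genes. MondoA, a sensor of glucose metabolites, binds carbohydrate response elements and controls TXNIP and ARRDC4.

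Of the 14685 genes, 32 were called at an adjusted p of at most 0.05 (0.218%), 18 higher (0.123%) and 14 lower (0.0953%) under T-REX. These shares, and the 51.7% of all genes with a log2 fold change above 0, are the background for the list counts below. Changes were small. The genes called higher ranged from a log2 fold change of 0.23 to 1.27 and those called lower from -0.32 to -0.88, while the median of all genes was 0.01. TXNIP, ARRDC4, TIPARP, MAP2K6 and POU3F2 led the lower genes, and SLC7A11, SLC1A4, CREB3L2 and SEC24D were the higher genes whose calls did not depend on any single library. All 18 higher genes and all 14 lower genes had 4 T-REX libraries that did not overlap the 4 light-alone libraries, as did 2.9% of all genes upward and 2.81% downward. Without light-alone replicate 3 the count of calls was 29, of which 22 were among the 32, and without light-alone replicate 4 it was 190, with all 32 among them. The fit of only the 8 libraries called 9 genes, all of them among the 32.

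**Figure D1:**
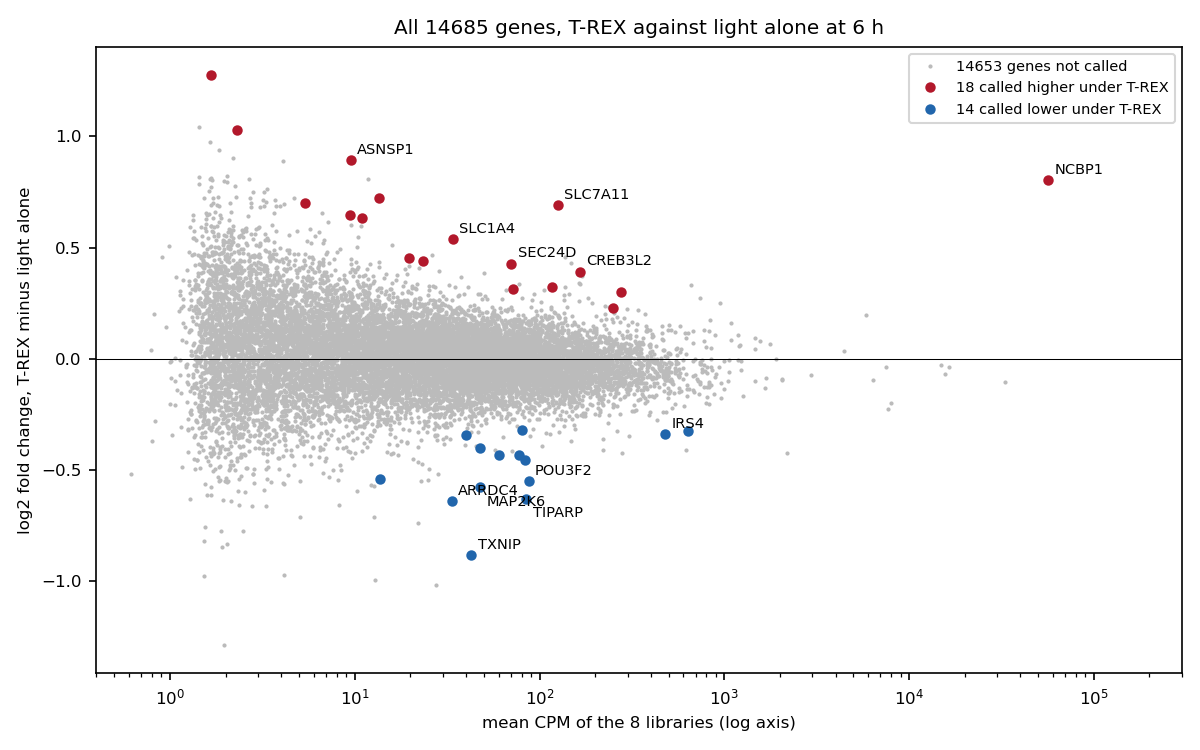
Log2 fold change of T-REX minus light alone at 6 h (vertical axis) against the mean CPM of the 8 libraries (horizontal log axis), 1 point per gene, with the 18 genes called higher in red and the 14 called lower in blue. NCBP1 lies far to the right at a log2 fold change of 0.80, and TXNIP is the lowest called gene at -0.88.

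Promoter sequence is shown first for the genes whose regulators are best known, so that the letters can be read beside the values. RefSeq windows of GRCh38.p14, from 250 bases before to 50 after the start, were found for 21 of the 32 called genes. Each stretch below is 30 bases, 5′ to 3′ on the gene's strand and upstream of the start, with the matched motif in capitals. The positions are chr1:145996644-145996673 (TXNIP, minus strand), chr15:97960481-97960510 (ARRDC4, plus strand), chr22:28800597-28800626 (XBP1, minus strand), chr12:116881498-116881527 (HRK, minus strand) and chr3:139389632-139389661 (COPB2-DT, plus strand).
TXNIP: gatgtgCACGAGGGCAGCACGAGcctccgg
ARRDC4: aaacggcctgtgCACGTGcacgccggagcc
XBP1: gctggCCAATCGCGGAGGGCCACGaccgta
HRK: cgggggccggaTGATGTAAcccccctcccc
COPB2-DT: gtcagactgacTGACGTGgaacttccggga
In TXNIP the capitals mark a carbohydrate response element, a tandem of E box-like repeats searched on both strands, which 0.05695% of the 35116 RefSeq promoters hold. In ARRDC4 they mark a single E box (CACGTG, 7.256% of promoters), in XBP1 the ER stress response element (0.07689%), in HRK the C/EBP-ATF response element bound by ATF4 (TGATGNAA, 3.617%) and in COPB2-DT the core of the unfolded protein response element (TGACGTG, 1.971%). Other motifs were searched in the same windows. The hypoxia response element core (ACGTG, 21.41% of promoters) was found in 3 of 9 higher and 4 of 12 lower genes with a window. The antioxidant response element core (TGACNNNGC, 13.35%) was found in 2 of the 9 and 0 of the 12. The C/EBP-ATF element was found in 2 of the 9, HRK and, after the start, SLC7A1, and in 0 of the 12. A match is a string of letters and not a measured binding site. SLC7A11, SEC24D, SLC16A6, NCBP1, CA8 and RUNX1T1 had no window in the table.

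The called genes with the most negative fold changes were an arrestin-domain pair controlled by MondoA. TXNIP, which binds thioredoxin and restrains glucose uptake, stood at 28.4, 33.6, 33.3 and 25.1 CPM under T-REX and at 54.2, 55.2, 60.5 and 52.1 CPM with light alone. The log2 fold change was -0.88 (standard error 0.09, adjusted p = 1.17e-05), and the highest T-REX library was well below the lowest light-alone library. ARRDC4, its paralogue, measured 23.1, 29.2, 27.9 and 24.5 CPM against 40.8, 39.4, 47.6 and 35.4 CPM, a log2 fold change of -0.64 (standard error 0.09, adjusted p = 0.00037). Both calls held in each of the 16 fits that left out 1 library. Of the 11 genes listed for MondoA and its targets these 2 were called lower, where 0.0953% of all genes were. The median of the list was -0.07, beside 0.01 over all genes. Another arrestin-domain gene of the list, ARRDC3, lay on the other side (164, 160, 172 and 185 against 122, 104, 146 and 134 CPM, log2 fold change 0.43, adjusted p = 0.0524) and was not called.

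The 2 genes also stood apart from the other controls. TXNIP under T-REX was -0.95 against probe alone and -0.88 against DMSO on the log2 scale (adjusted p = 1.4e-06 and 8e-06), while light alone minus DMSO was 0.00. ARRDC4 was -0.47 and -0.57 (adjusted p = 0.022 and 0.0015), with light alone minus DMSO at 0.07. These comparisons share the T-REX libraries and are not independent of one another.

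Amino acid transporters were among the genes called higher. SLC7A11, the cystine-glutamate exchanger that supplies cysteine for glutathione, measured 159, 156, 144 and 163 CPM under T-REX and 102, 83.9, 93.7 and 106 CPM with light alone. Its log2 fold change was 0.69 (standard error 0.08, adjusted p = 9.58e-05). SLC1A4, a carrier of small neutral amino acids, measured 38.9, 40.8, 39.5 and 41.8 against 29.3, 27.7, 23.5 and 30.4 CPM (log2 fold change 0.54, adjusted p = 0.000762). SLC7A1, which carries arginine and lysine, rose by less, from 245, 262, 216 and 266 to 281, 322, 295 and 322 CPM (log2 fold change 0.30, adjusted p = 0.0247). In all 3 the T-REX libraries lay above every light-alone library. The monocarboxylate carrier family member SLC16A6 was called as well, at 12.3, 12.8, 9.49 and 11.4 against 6.74, 7.02, 6.99 and 8.56 CPM (log2 fold change 0.65, adjusted p = 0.0272).

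The list of transporters tied to the integrated stress response had 12 members, of which these 3 were called higher and none lower. Of all genes, 0.123% were called higher and 0.0953% lower. Of the 12, 10 had a log2 fold change above 0 and the median was 0.27, beside 0.01 over all genes, 51.7% of which lay above 0. SLC3A2, the heavy chain that pairs with SLC7A11, was at 0.34 (adjusted p = 0.0698) and the glycine transporter SLC6A9 at 0.51 (adjusted p = 0.079). Synthesis genes of the same response leaned the same way without a call. Of 15 members 14 were above 0, with a median of 0.21 and 9 whose unadjusted p was 0.05 or less, a level that 4.97% of all genes reached upward. PSAT1, of serine synthesis, measured 146, 150, 153 and 148 against 118, 113, 145 and 113 CPM (log2 fold change 0.29, adjusted p = 0.0524). The groups did not overlap, but light-alone replicate 3 came within 1 CPM of the lowest T-REX library. ASNS, asparagine synthetase, was at 0.43 (standard error 0.14, adjusted p = 0.243).

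Regulators of the integrated stress response showed 12 of 13 members above 0 (51.7% of all genes) and a median of 0.20. The 1 member below 0 was at -0.26. Among the 13, 0 were called and 6 had an unadjusted p of 0.05 or less, all of them upward (4.97% of all genes). ATF4 itself measured 356, 378, 371 and 371 CPM against 315, 344, 267 and 341 CPM (log2 fold change 0.22, standard error 0.06, adjusted p = 0.132), and its partner CEBPG was at 0.20 (adjusted p = 0.122). CHAC1, a glutathione-degrading enzyme, had the largest log2 fold change of the list, 0.81, but at 2.71 to 4.21 CPM against 1.64 to 2.24 CPM and with a standard error of 0.28 (adjusted p = 0.269). Cytosolic tRNA synthetases had 15 of 20 members above 0 and a median of 0.07, with AARS1 at 0.27 and GARS1 at 0.24 (adjusted p = 0.0981 and 0.105), and the 16 mitochondrial ones a median of 0.00. Neither list had a call. The C/EBP-ATF element shown for HRK was found in 14 of the 49 genes of these lists, cytosolic synthetases included, that have a window (28.57%).

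These transporter values were set beside the other controls too. SLC7A11 was 0.73 above probe alone and 0.80 above DMSO under T-REX (adjusted p = 2.2e-05 and 8e-06), and light alone minus DMSO was 0.10. SLC1A4 was at 0.35 and 0.45 (adjusted p = 0.08 and 0.0063), and SLC7A1 at 0.25 and 0.23 (adjusted p = 0.13 and 0.078). List medians of T-REX minus probe alone and minus DMSO were 0.20 and 0.14 for transporters and 0.21 and 0.22 for synthesis genes. For the regulators they were smaller, 0.09 and 0.11, and light alone itself was at -0.09 and -0.10 against these controls.

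**Figure D2:**
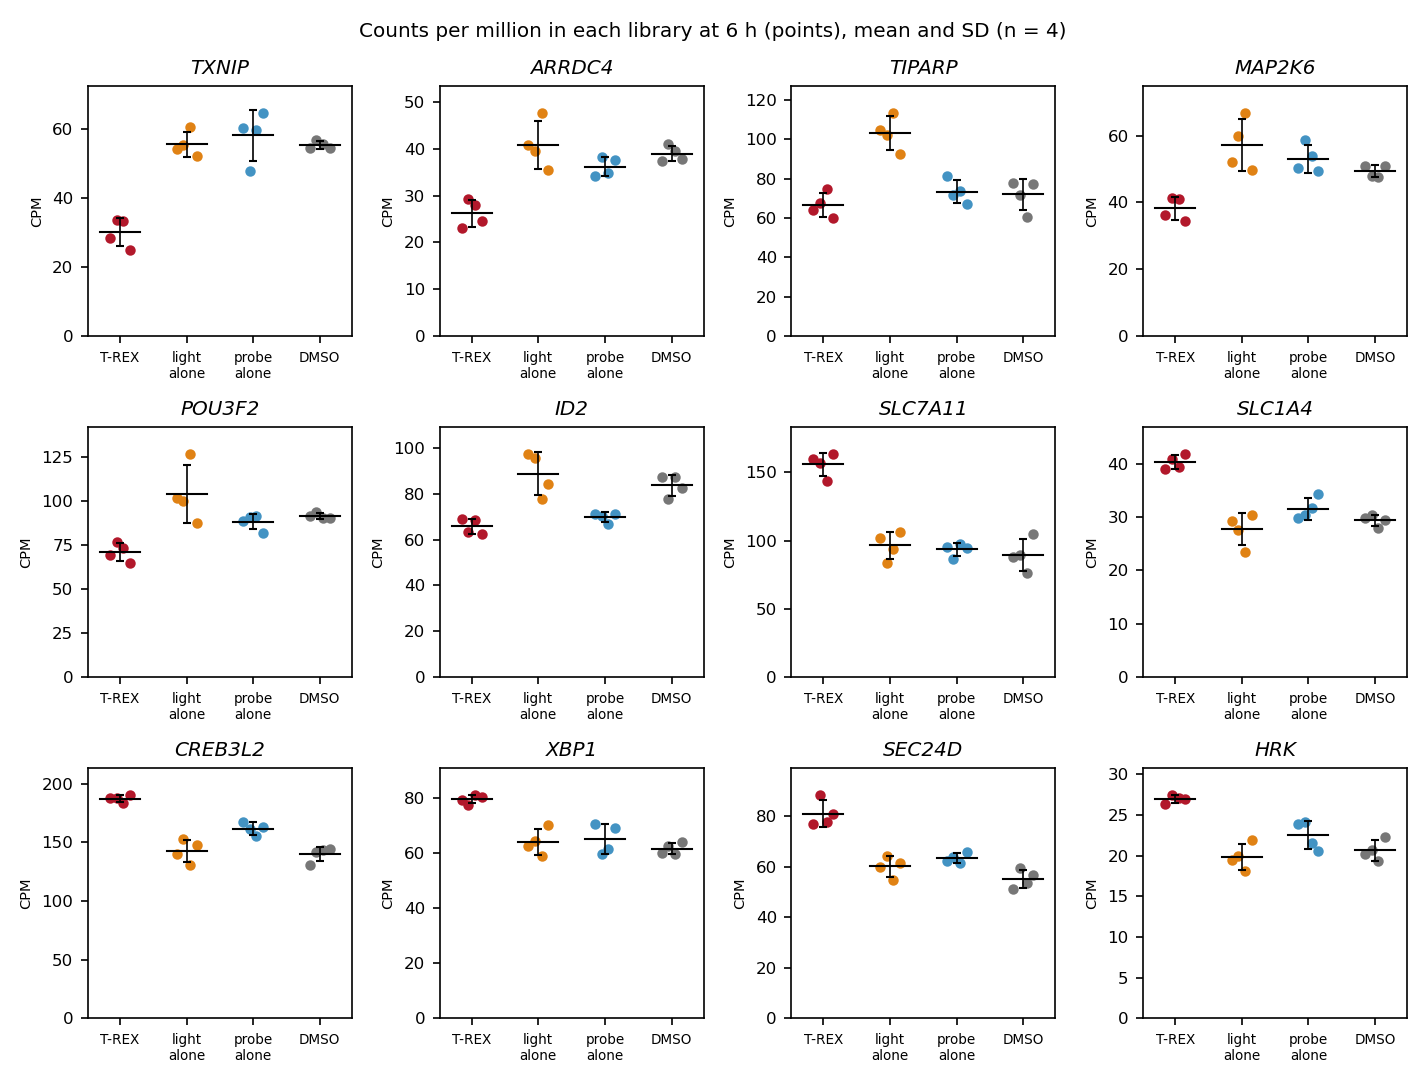
CPM (vertical axes, from 0) of 12 called genes in each library of the 4 arms at 6 h, with the bar at the mean and the whisker as SD (n = 4). TXNIP has its 4 T-REX points between 25.1 and 33.6 CPM and SLC7A11 between 144 and 163 CPM, each apart from the other 3 arms, whereas TIPARP is high with light alone (92.4 to 113 CPM).

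CREB3L2, XBP1 and SEC24D, of the unfolded protein response and secretion lists, were also called higher. CREB3L2, a transcription factor anchored in the ER membrane, measured 188, 188, 184 and 191 CPM under T-REX and 140, 153, 131 and 148 CPM with light alone (log2 fold change 0.39, standard error 0.05, adjusted p = 0.00031). The T-REX libraries were within a few CPM of each other and all above the light-alone ones. XBP1, whose transcript is spliced by the ER sensor IRE1, measured 79.4, 77.6, 81.3 and 80.5 against 62.7, 64.5, 58.9 and 70.3 CPM (log2 fold change 0.31, standard error 0.06, adjusted p = 0.0272), and the call was lost when any 1 of the T-REX libraries, or light-alone replicate 1, 2 or 3, was left out. SEC24D, a cargo adaptor of the COPII coat that carries proteins out of the ER, measured 77.0, 88.4, 77.5 and 80.6 against 59.9, 64.3, 54.5 and 61.6 CPM (log2 fold change 0.43, adjusted p = 0.00101).

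With CREB3L2 and XBP1 counted, 10 of 11 regulators of the unfolded protein response were above 0 (median 0.20, 2 called higher, 0 lower). Of all genes, 51.7% lay above 0 and 0.123% were called higher. The median of these regulators was 0.13 for T-REX minus probe alone and 0.12 for T-REX minus DMSO. Light alone was at -0.06 and -0.08 against the same controls. EIF2AK3, the ER kinase that starts the integrated stress response, was at 0.20 (adjusted p = 0.271). ER chaperones had 13 of 18 above 0 and a median of 0.10, with PDIA4 at 0.26 and HSPA5 at 0.25 (adjusted p = 0.131 and 0.155), and 0 called. Factors of ER-associated degradation had a median of 0.03 and 0 of 12 called, with HERPUD1 at 0.24 (adjusted p = 0.214). SEC24D was the 1 called member of 16 COPII genes, whose median was 0.02. The ER stress response element of the XBP1 window occurred in 7 of 38 genes of the regulator, chaperone and degradation lists (18.42%), HSPA5 among them.

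Against the other controls SEC24D was at 0.35 and 0.55 (T-REX minus probe alone and minus DMSO, adjusted p = 0.015 and 3.8e-05), CREB3L2 at 0.21 and 0.42 (adjusted p = 0.14 and 8.1e-05) and XBP1 at 0.29 and 0.37 (adjusted p = 0.085 and 0.0067). COPB2-DT, a transcript that GENCODE types as antisense and that starts beside the gene of a coat subunit, COPB2, was called at 26.0, 20.1, 21.4 and 23.5 against 18.4, 15.4, 17.3 and 15.3 CPM (log2 fold change 0.45, adjusted p = 0.0455), although no source states that the counting used strand.

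HRK, a BH3-only protein that promotes apoptosis, rose from 19.5, 19.9, 18.1 and 21.9 CPM to 26.4, 27.5, 27.1 and 27.0 CPM (log2 fold change 0.44, standard error 0.08, adjusted p = 0.0139). Its T-REX libraries had an SD of 0.449 CPM. It was the 1 called gene among 15 apoptosis genes, whose median was 0.02. Of 21 p53 targets 0 were called and 17 lay above 0, with a median of 0.10. At an unadjusted p of at most 0.05, 4 of these targets were higher, a level that 4.97% of all genes reached upward. Against probe alone and DMSO their median was -0.09 and -0.13 for T-REX, and -0.18 and -0.27 for light alone. Another called transcription factor, CREB5, had the smallest change of the 32, from 220 to 247 CPM with light alone to 261 to 280 CPM under T-REX (log2 fold change 0.23, adjusted p = 0.0496), and the call was lost in 14 of the 16 fits that left out 1 library. PCLO, a scaffold of the presynaptic zone, measured 143, 122, 120 and 137 against 108, 99.0, 102 and 108 CPM (log2 fold change 0.32, adjusted p = 0.00924).

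MAP2K6, IRS4 and PLEKHG2 were called lower. MAP2K6, a kinase that activates p38, measured 36.4, 41.2, 41.0 and 34.4 CPM under T-REX and 52.2, 59.8, 66.8 and 49.8 CPM with light alone (log2 fold change -0.58, standard error 0.08, adjusted p = 0.000785). It was also lower than with probe alone (-0.47, adjusted p = 0.015) and DMSO (-0.37, adjusted p = 0.049). IRS4, the insulin receptor substrate that is abundant in this line, measured 403, 433, 430 and 426 against 545, 521, 598 and 474 CPM (log2 fold change -0.34, adjusted p = 0.00614). Its mean with probe alone was 428 ± 24.5 CPM (SD, n = 4), close to T-REX, and light alone was itself called above probe alone (0.32, adjusted p = 0.026). PLEKHG2 measured 32.3, 35.3, 34.2 and 39.2 against 45.4, 43.3, 44.8 and 45.3 CPM (log2 fold change -0.34, adjusted p = 0.0214).

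POU3F2, ID2, ZBTB18 and RUNX1T1, which regulate transcription, were called lower as well. POU3F2, a neural POU factor, measured 69.3, 76.5, 73.3 and 64.5 CPM against 101, 99.7, 127 and 87.5 CPM (log2 fold change -0.55, standard error 0.08, adjusted p = 0.000785). ID2, which blocks basic helix-loop-helix factors and is a target of BMP signalling, measured 68.8, 63.5, 68.3 and 62.4 against 97.3, 95.6, 77.4 and 84.3 CPM (log2 fold change -0.43, adjusted p = 0.0015). Neither gene had a T-REX library within the light-alone range. The repressor ZBTB18 measured 50.5, 55.6, 50.3 and 49.8 against 71.3, 64.4, 81.3 and 61.5 CPM (log2 fold change -0.43, adjusted p = 0.00614), and the corepressor RUNX1T1 43.1, 42.5, 41.4 and 36.6 against 48.5, 61.1, 54.7 and 51.9 CPM (log2 fold change -0.40, adjusted p = 0.00709). For ID2, light alone was called above probe alone by 0.35 (adjusted p = 0.044), and T-REX minus probe alone was -0.09.

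Of 18 genes of developmental signalling (BMP, Wnt and related pathways), 15 were below 0 and the median was -0.15, with ID2 as the 1 called. BMP4 was at -0.55 but its groups overlapped, at 15.1 to 21.6 CPM against 21.1 to 36.2 CPM (adjusted p = 0.118), and SMAD6 and ID4 were at -0.32 and -0.22 (adjusted p = 0.226 and 0.233). Of the list, 8 members lay below 0 at an unadjusted p of at most 0.05, a level that 6.68% of all genes reached downward. Against probe alone and DMSO the list median was -0.07 and -0.06 for T-REX, and 0.07 and 0.08 for light alone.

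The other genes called lower were CA8, GJA1, PCDH9, MIR1915HG and TIPARP. CA8, a carbonic anhydrase-related protein without enzyme activity, measured 66.6, 78.0, 74.3 and 64.3 against 92.6, 97.5, 115 and 83.1 CPM (log2 fold change -0.45, adjusted p = 0.0205). GJA1, the gap junction protein connexin 43, was at -0.32 (adjusted p = 0.028) and the protocadherin PCDH9 at -0.33 (adjusted p = 0.0382). PCDH9 measured 544 to 577 CPM under T-REX and 591 to 813 CPM with light alone, and its call was lost in 10 of the 16 fits that left out 1 library. MIR1915HG, the host gene of miR-1915, was called at -0.54 (adjusted p = 0.0247).

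TIPARP showed a different order of the arms. This ADP-ribosyltransferase is induced by the aryl hydrocarbon receptor (AHR) and dampens it. It measured 64.4, 67.8, 74.6 and 59.8 CPM under T-REX and 105, 102, 113 and 92.4 CPM with light alone, a log2 fold change of -0.63 (standard error 0.08, adjusted p = 0.00031) that held in each fit without 1 library. Probe alone and DMSO, at 73.4 ± 5.82 and 72.0 ± 7.97 CPM (SD, n = 4), were near T-REX, which differed from them by -0.14 and -0.11 (adjusted p = 0.83 and 0.65). Light alone was called above both, by 0.49 and 0.52 (adjusted p = 0.014 and 0.026). Between light alone and DMSO, edgeR called TIPARP and no other gene. Of 8 genes of the AHR pathway it was the only one called, and CYP1B1, another target, was at -0.57 between overlapping groups (8.83 to 11.1 against 11.0 to 17.5 CPM, adjusted p = 0.0698). The xenobiotic response element core searched for this pathway (TNGCGTG, 5.51% of promoters) had no match in the TIPARP window. Among called genes it matched in the windows of TXNIP, XBP1 and SLC1A4.

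**Figure D3:**
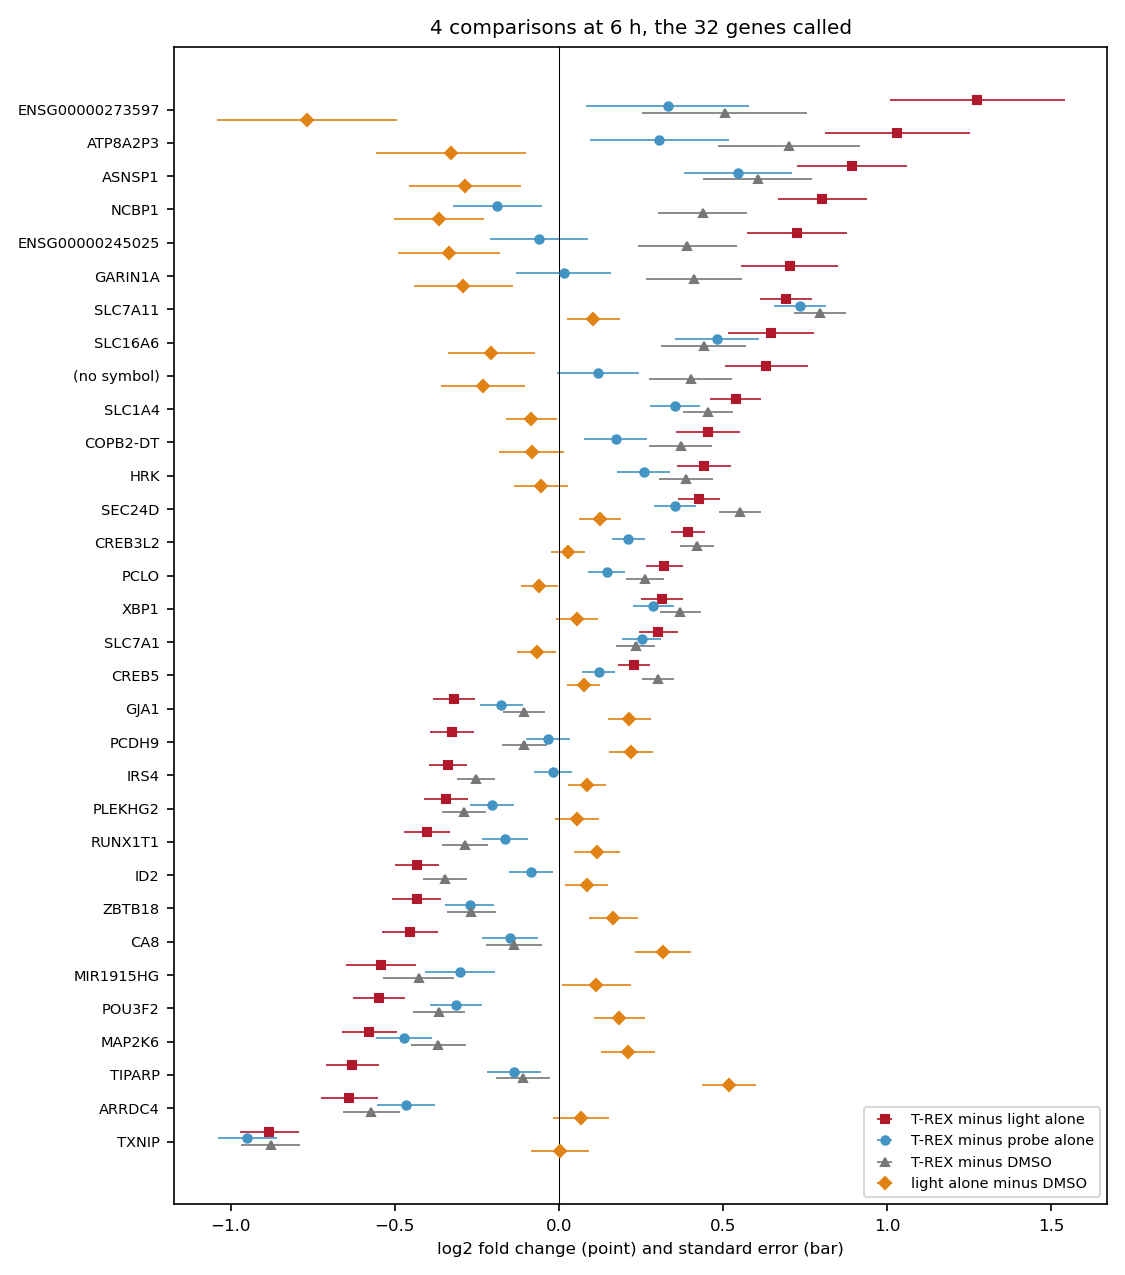
Log2 fold changes with their standard errors at 6 h (horizontal axis) for the 32 called genes, in 4 comparisons that share libraries. TXNIP and SLC7A11 have 3 T-REX comparisons close together and light alone minus DMSO at 0.00 and 0.10, TIPARP has light alone minus DMSO at 0.52, and for NCBP1 the T-REX minus probe alone value is -0.19.

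Hypoxia genes leaned lower without a call. Of 24 genes regulated by hypoxia outside metabolism 21 were below 0 (median -0.20), 11 of them with an unadjusted p no higher than 0.05 (6.68% of all genes downward), and of 22 metabolic ones 15 were below 0 (median -0.07). CXCR4, a chemokine receptor, measured 8.39, 8.82, 10.9 and 10.3 against 16.8, 17.6, 16.9 and 11.7 CPM (log2 fold change -0.71, adjusted p = 0.0698). The groups did not overlap, and light-alone replicate 4 was the library closest to T-REX. The hormone gene STC1 was at -1.29 on 0.661 to 1.62 against 2.19 to 3.34 CPM (adjusted p = 0.079), and the histone demethylase KDM3A at -0.27 (adjusted p = 0.0698). Without light-alone replicate 4, 4 of the 24 were called lower, where 0.817% of all genes were. The hypoxia response element core was found in 20 of the 40 genes of the 2 hypoxia lists that have a window (50%), beside 21.41% of all promoters.

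Lists for other responses to electrophiles and stress had few members past the test. Among 24 NRF2 targets SLC7A11 was the 1 called, the median was 0.06, and SLC7A11 is also counted in the transporter list. Heat shock genes had 0 of 17 called and a median of -0.02, with BAG3 at 0.25 (adjusted p = 0.415). Immediate early genes (0 of 18 called, median -0.01), sterol genes (0 of 22, median 0.05) and genes of mTORC1 regulation and S6 kinases (0 of 16, median 0.01) had none called. RARB, a retinoic acid receptor, was at -0.34 (adjusted p = 0.0698), with 0 of 9 retinoid genes called. Only 4 of 14 interferon genes could be followed, and 0 were called.

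Of 21 genes of the cap-binding complex, its partners and proteins examined by the study, NCBP1 was the only one called. NCBP2, the small subunit that binds the cap, was at -0.09 (standard error 0.09, adjusted p = 0.704). Splicing lists had 0 called among 12 genes of the U2 snRNP (median -0.01) and 18 of the Sm, U1 and U5 particles (median 0.04). SR proteins and hnRNPs had 21 of 28 below 0 (median -0.07, 0 called). Of the 28, 9 lay below 0 with an unadjusted p of 0.05 or less (6.68% of all genes) and 6 had all T-REX libraries below all light-alone libraries (2.81% of all genes). SRSF2, an SR protein whose own transcript is controlled by splicing, measured 186, 211, 195 and 178 against 237, 221, 305 and 224 CPM (log2 fold change -0.36, adjusted p = 0.0698). HNRNPH1 was at -0.20 (adjusted p = 0.118).

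Export genes (14), nonsense-mediated decay factors (16), transcripts degraded by that pathway (15), translation initiation factors (25) and ribosomal proteins (79) had 0 called each, with medians between -0.05 and 0.05. The same held for 13 histone and 13 mitochondrial transcripts (both medians -0.07), 23 mitosis genes (-0.06) and 22 genes of S phase (-0.01). Counts per gene do not measure splicing or translation.

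Of the 18 genes that the study itself names for its RNA-seq, 5 were called, with TXNIP, MAP2K6 and POU3F2 lower and HRK and XBP1 higher. At an unadjusted p of at most 0.05, 4 were higher and 13 lower (4.97% and 6.68% of all genes). The study chose them on libraries of this series, from genes that passed against more than a single control at 3 h, 6 h or 12 h. The comparison here has light alone as its only control and covers 6 h, so the 2 selections are unlike. Because libraries are shared, the counts are not independent evidence. YARS1, a tRNA synthetase, was at 0.34 and SNRPD3, an Sm core protein, at -0.20 (adjusted p = 0.148 and 0.164). BNIP3L, a mitophagy receptor, and SESN3, a sestrin, were at -0.26 and -0.29 (adjusted p = 0.258 and 0.132). DACH1, a transcription factor, was at -0.15 (adjusted p = 0.413).

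The remaining called genes were low in counts or not protein coding. Of the 32, 26 were typed as protein coding in GENCODE 29, and the 6 others were all higher. ASNSP1, a pseudogene of ASNS, measured 13.8, 11.1, 11.6 and 12.9 against 6.47, 5.22, 6.71 and 8.21 CPM (log2 fold change 0.89, standard error 0.17, adjusted p = 0.0184). Reads from ASNS and ASNSP1 can be assigned to either, so the 2 values are uncertain. ATP8A2P3, another pseudogene, was at 2.68 to 4.0 against 1.42 to 1.72 CPM (log2 fold change 1.03, adjusted p = 0.0455). The processed pseudogene ENSG00000273597 had the largest log2 fold change of the 32, 1.27, on 1.95 to 2.58 against 0.475 to 1.55 CPM (adjusted p = 0.0382).

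For 2 of the low genes the means with T-REX and probe alone were close, as for NCBP1. GARIN1A, of a family that interacts with the Golgi GTPase RAB2, measured 6.74, 6.70, 5.38 and 7.81 CPM against 4.30, 3.32, 4.14 and 4.57 CPM (log2 fold change 0.70, adjusted p = 0.0437), with T-REX minus probe alone at 0.01. ENSG00000245025, typed as antisense, measured 15.9, 15.7, 16.6 and 19.6 against 12.4, 8.37, 7.90 and 12.2 CPM (log2 fold change 0.73, adjusted p = 0.0455), with T-REX minus probe alone at -0.06. Both had lower means with DMSO, 5.01 ± 0.703 and 12.9 ± 1.81 CPM (SD, n = 4), and the lowest with light alone. With the log2 CPM of NCBP1 as a covariate, GARIN1A was at 0.48 (standard error 0.27) and ENSG00000245025 at -0.003 (standard error 0.21). The NCBP1 level and the arm cannot be told apart in these libraries, so that fit does not settle whether the level has a part.

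The same comparison at 3 h and 12 h used other libraries. All 32 genes had the same direction at 3 h as at 6 h, and all 32 at 12 h, although RUNX1T1 at 3 h and PCDH9 at 12 h were at -0.00 and -0.01. The share of all genes that kept their direction is not given here. At 3 h, 7 of the 32 were called in that direction (TXNIP, ARRDC4, TIPARP, POU3F2, XBP1, CREB3L2 and SEC24D), where 0.197% of all genes were called (0.0817% higher and 0.116% lower). At 12 h, 21 of the 32 were called in that direction, 11 higher and 10 lower, where 1.29% of all genes were called. TXNIP measured -0.74 at 3 h and -0.63 at 12 h (adjusted p = 0.0021 and 0.00088), and ARRDC4 -0.55 and -0.63 (adjusted p = 0.0046 and 4.9e-05). SLC7A11 was at 0.36 at 3 h (adjusted p = 0.16) and 0.77 at 12 h (adjusted p = 0.00096).

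At the level of lists, 6 of 12 transporters and 5 of 15 synthesis genes of the integrated stress response were called higher at 12 h, where 0.497% of all genes were called higher. Of the hypoxia genes, 12 of 24 and, for metabolism, 9 of 22 were called lower at 12 h, where 0.79% were. At 3 h, 0 transporters, 2 synthesis genes and 0 hypoxia genes of either list were called in these directions. Whether the difference between the arms itself changed with time was tested in 1 fit of 48 libraries. By edgeR 0 genes differed between 6 h and 3 h (671 at an unadjusted p of at most 0.05, 4.57%, smallest adjusted p = 0.326, RARB) and 0 between 6 h and 12 h (326 at that level, 2.22%), and DESeq2 called 0 in each. The different counts at the 3 times are therefore not shown to be different effects.

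**Figure D4:**
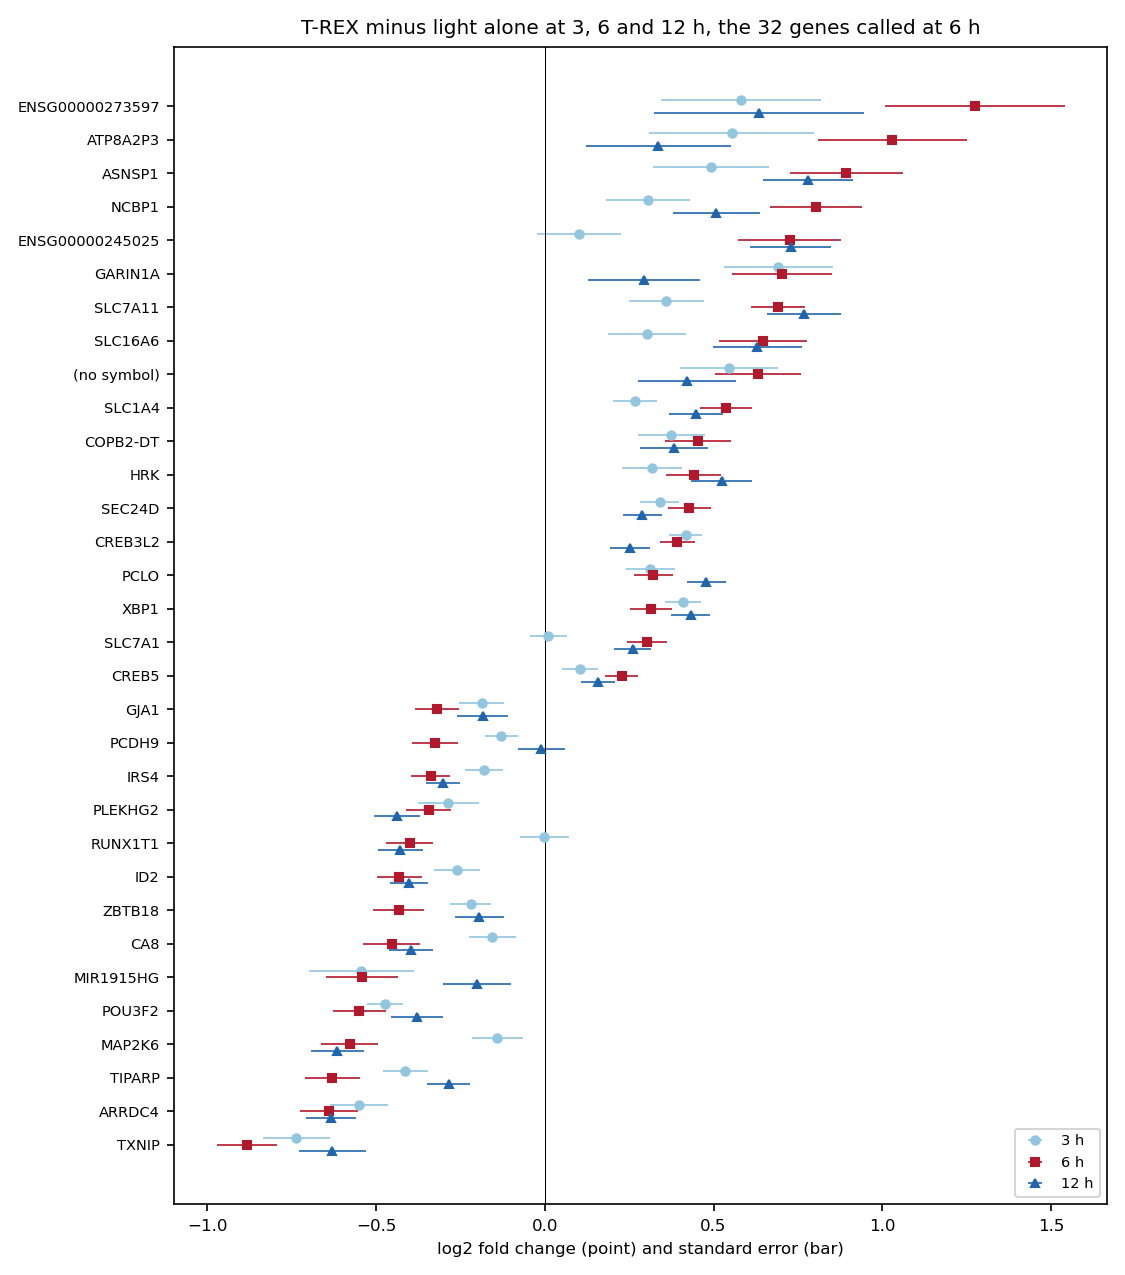
Log2 fold change of T-REX minus light alone with its standard error (horizontal axis) at 3, 6 and 12 h for the 32 genes called at 6 h, from separate libraries. Every point lies on the side of 0 of its 6 h value, with RUNX1T1 at 3 h and PCDH9 at 12 h next to 0.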

How the data were processed

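RNA was sequenced by the authors on an Illumina NovaSeq as paired-end reads from stranded, rRNA-depleted libraries. The authors deposited raw counts per gene for 14685 genes, log2 CPM of the same genes, and 2 RUV factors per library, a score whose method is not stated. The genome build, aligner and counter of the counts are not given in the sources used here, although the study's software list names cutadapt, tophat and cufflinks. Symbols came from an Ensembl table and GENCODE 29, which together hold 14682 identifiers.

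The 16 libraries of 6 h were fitted together with edgeR 4.0.16 in R 4.3.3 (TMM, filterByExpr, which removed 0 genes, estimateDisp, robust glmQLFit, quasi-likelihood F-test), with p-values adjusted by Benjamini-Hochberg over all genes and calls at 0.05. TMM factors lay between 0.967 and 1.03. Standard errors are the log2 fold change divided by the root of F. Shares of counts were compared by exact permutation. Alternatives were DESeq2 1.42.0, its scaling factors in edgeR, limma 3.58.1 on the deposited log2 CPM, other filters, a block on replicate number, RUV factors as covariates, only the 2 arms, each library left out and, added after the data were seen, NCBP1 as a covariate and the 2 arms without light-alone replicate 3. On simulated data of 14685 genes for this comparison the fit recovered 69% of 100 genes changed by 0.5 and 99% of 100 changed by 1 (log2), and 7.18% of its 181 calls were false, above the 5% aimed at. The changed genes were drawn from those with a mean of at least 100 counts, so recovery at lower counts was not measured. All other genes had the same mean in each arm, and no outlying library was simulated. All called genes are named except 1 that lacks a symbol, with genes the study names, partners of NCBP1 and up to 6 members of each list, called genes first and then by p; list members printed are a part of these. The members and lists were chosen with earlier results of these data known. The p-values of edgeR weigh a difference of arm means against the spread between these libraries. That spread was estimated from all libraries of the fit, the other arms included, and moderated across genes.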

Additional observations from a re-analysis of the deposited data

Results flagged for a closer look

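In groups of 4, a library was marked when its gap to the nearest other was a large part of the group's range (Dixon's test at 95%), which chance alone meets in about 1 in 20 groups, and 68 groups were looked at (the 32 called genes and 2 shares of counts, in each of the 2 arms). The rule marked 2 groups. ZBTB18 stood at 55.6 CPM in T-REX replicate 2, with the other T-REX libraries between 49.8 and 50.5 CPM, which is still below the lowest light-alone library. SLC16A6 stood at 8.56 CPM in light-alone replicate 4, with the others between 6.74 and 7.02 CPM, still below the lowest T-REX library.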

How the results depend on the processing

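The 32 calls became 153 with DESeq2, 50 with the replicate block, 1202 with the 2 RUV factors as covariates, 9 in the fit of only the 2 arms and 0 with NCBP1 as a covariate, an alternative chosen after seeing the data, and with 1 library left out they ranged from 14, when that was T-REX replicate 4, to 190, when it was light-alone replicate 4. Left-out libraries that moved the count by over 1.5 times were also T-REX replicates 1, 2 and 3 (16, 18 and 21) and light-alone replicate 1 (18). Among listed genes 14 were called, and 40 with DESeq2, 139 with the RUV factors, 8 in the fit of the 2 arms, 0 with NCBP1 as a covariate and between 10 and 44 with 1 library left out (44 for light-alone replicate 4). All 32 were among the calls of DESeq2, of the block and of the RUV fit. With NCBP1 as a covariate ASNS (-0.10) and ENSG00000245025 (-0.00275) changed sign, the only named genes to do so in any alternative. The cause of these differences was not tested. The labels number replicates alike in each arm. Deviations of T-REX and light-alone libraries of 1 number correlated at -0.03, 0.13, 0.12 and 0.29, not all over 0.1. Over all arms, 9 of 16 libraries correlated best with a library of their own number in another arm. Numbers 1 to 4 are equally common there, so 9 of 16 is more than equal odds would give. Whether the numbers mark pairs was not settled, and the block, with 50 calls, was kept as an alternative. Leaving out 1 library gave differences of 2.70 to 3.41 percentage points for the NCBP1 share and 1.99 to 2.56 for the 10 highest genes, with p = 0.0571 by the exact permutation test, the smallest that 3 against 4 allows. The interactions with time stayed at 0 genes in each alternative run. The scaling factors of DESeq2 in edgeR called 31 genes, limma-trend on the deposited log2 CPM 35, and the 2 arms without light-alone replicate 3, also chosen after seeing the data, 35, of which 25 were among the 32. Over the 16 fits with a library removed, the call held in 16 for 12 genes, in 15 for RUNX1T1, in 14 for CA8 and PCLO, in 13 for HRK, in 12 for PLEKHG2 and ASNSP1, in 11 for GJA1, SLC7A1 and NCBP1, in 10 for MIR1915HG and SLC16A6, in 9 for XBP1, in 7 for ENSG00000273597, in 6 for PCDH9, in 5 for COPB2-DT, GARIN1A and ENSG00000245025, in 4 for ATP8A2P3 and in 2 for CREB5.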
